A study of Mus musculus with 6 samples.

Results

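Oligopeptide transporters of the Slc15a family were examined in newborn mouse epidermis, together with Tmem132a, the gene that overlaps Slc15a3 on the opposite strand. The 5 genes Slc15a1, Slc15a2, Slc15a3, Slc15a4 and Tmem132a were taken by name from the 55487 Ensembl genes of the files, and each passed the filter on low values. Slc15a3 was chosen by its FPKM difference between the groups of these same libraries, so its change is described here without a test. Slc15a1, Slc15a2 and Slc15a4 were taken as its relatives and Tmem132a for its position, and their changes are given with the test over all genes. The remaining mouse gene of the family, Slc15a5 (ENSMUSG00000044378), was listed at 0 in all 6 libraries.

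The study compared 3 control and 3 Znf750_cKO epidermal RNA libraries from pups at postnatal day 0, to learn what Znf750 does in the skin as it develops. Znf750, named Zfp750 in the mouse, is a zinc finger protein that controls genes as keratinocytes differentiate. The labels give the groups only as control and Znf750_cKO, with nothing on the allele, the line that deletes it, the strain, the sex or any pooling of pups. All 6 came from back skin epidermis, freed with dispase and trypsin. Nothing says that the libraries of a group came from separate animals, so p-values measure the spread between these libraries.

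Slc15a transporters carry dipeptides and tripeptides across membranes together with protons. Slc15a1 (PEPT1) and Slc15a2 (PEPT2) work at the cell surface, where Slc15a1 is best known from the small intestine and Slc15a2 from kidney and brain. Slc15a3 (PHT2) and Slc15a4 (PHT1) sit in the membrane of endosomes and lysosomes, carry histidine and small peptides including bacterial muramyl peptides, and are best known from macrophages and dendritic cells. Tmem132a is a single-pass membrane protein linked to Wnt signalling and is not a transporter.

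Promoter windows were held by the RefSeq table (build GRCm38.p6) for 3 of the 5 genes, Slc15a1, Slc15a2 and Slc15a4, and not for Slc15a3 and Tmem132a. They are shown because these genes took different courses: Slc15a1 was lower in Znf750_cKO, Slc15a2 differed most from library to library, and Slc15a4 stayed near one level. Each line is the 250 bases before the annotated start, 5′ to 3′ on the minus strand, from which all 3 genes are read. The Slc15a4 window lies inside the gene span given further on, since the RefSeq start is not the outermost one. The windows lie at chr14:121505255-121505504, chr16:36784963-36785212 and chr5:127617393-127617642. Capitals mark GGGCGG on either strand, the GC box.
Slc15a1: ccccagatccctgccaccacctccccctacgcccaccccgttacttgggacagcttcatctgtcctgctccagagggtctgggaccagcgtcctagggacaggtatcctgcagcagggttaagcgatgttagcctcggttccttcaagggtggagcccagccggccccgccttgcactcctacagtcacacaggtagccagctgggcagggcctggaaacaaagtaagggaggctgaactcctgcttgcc
Slc15a2: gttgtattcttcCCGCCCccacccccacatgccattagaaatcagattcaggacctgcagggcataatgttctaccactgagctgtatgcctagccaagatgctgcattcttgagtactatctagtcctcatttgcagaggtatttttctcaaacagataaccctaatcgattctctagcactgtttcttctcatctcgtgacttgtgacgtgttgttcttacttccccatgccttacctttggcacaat
Slc15a4: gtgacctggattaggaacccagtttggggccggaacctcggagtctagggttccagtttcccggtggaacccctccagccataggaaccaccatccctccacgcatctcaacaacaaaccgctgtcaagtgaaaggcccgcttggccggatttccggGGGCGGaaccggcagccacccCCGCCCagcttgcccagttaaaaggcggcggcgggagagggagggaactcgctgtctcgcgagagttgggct

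The GC content of these windows was 62.0% for Slc15a1, 45.2% for Slc15a2 and 62.8% for Slc15a4, against a median of 52.4% over the same 250 bases of all 32851 windows in the table. GGGCGG was found once in Slc15a2, beginning 238 bases before the start, and in Slc15a4 93 and 72 bases before it. The Slc15a1 window held none, and 32.7% of all windows held at least 1. CCNNAGGC, a motif described for human ZNF750, was searched on both strands and matched none of the 3 windows, while 20.4% of all windows held it. The E box CACGTG and the TATA box TATAAA were also absent from the 3, and were held by 6.02% and 12.4% of windows. A match describes letters only, and the matches found did not overlap one another.

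Read depth is not given with FPKM, the unit of the files (a fragment count scaled to transcript length and to the mapped fragments of the library). The steps between low values placed it at an estimated 21.5 to 35.4 M reads per library. On the longest coding transcript of each gene, that corresponds to about 102 to 126 reads of Slc15a3 in the control libraries and 832 to 1354 in the Znf750_cKO libraries. The lowest estimate for any of the 5 genes was 61 reads, for Slc15a2 in control replicate 3. Zfp750 itself stood at 32.0 to 44.8 FPKM in control and 0.83 to 1.47 FPKM in Znf750_cKO. Xist, the RNA of the inactive X chromosome, was at 104 and 82.1 FPKM in replicate 3 of control and of Znf750_cKO and at 0.02 to 0.11 in the other 4 libraries. Ddx3y, on the Y chromosome, was at 0.04 FPKM in replicate 3 of each group and at 25.3 to 33.7 in the other 4. By these genes the replicates numbered 3 read as female in both groups and the other 4 libraries as male. Fits without replicate 3 of both groups therefore hold only libraries that read as male. The epidermal labels were matched by keratinocyte markers: Krt5, of the basal layer, ran from 6275 to 6973 FPKM and Krt10, of the suprabasal layers, from 7397 to 14585 FPKM over the 6 libraries.

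Over all genes, limma on log2(FPKM + 1) called 577 of 13688 tested genes changed at a Benjamini-Hochberg adjusted p under 0.05, which is 4.22%. Of these 152 rose (1.11%) and 425 fell (3.1%). After rescaling by median ratios, 248 rose and 265 fell, and with the replicate number as a block 2.86% of genes passed. Groups that did not overlap were seen in 28.0% of tested genes, with Znf750_cKO higher in 8.28% and lower in 19.7%. Of the 5 genes here, Slc15a1 passed the threshold besides Slc15a3, whose own pass follows from its choice, and Slc15a1, Slc15a3 and Tmem132a had groups that did not overlap. Each of the 5 kept the sign of its change under all 16 alternatives run.

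Slc15a3 (ENSMUSG00000024737) lies at chr19:10839727-10859362 on the plus strand in GRCm38. It stood at 1.79, 2.61 and 1.94 FPKM in control replicates 1, 2 and 3, and at 17.05, 16.86 and 16.13 FPKM in Znf750_cKO replicates 1, 2 and 3. All 3 Znf750_cKO libraries were far above all 3 controls, and within Znf750_cKO the highest was 1.06-fold the lowest. The mean was 2.11 ± 0.44 FPKM in control and 16.7 ± 0.49 in Znf750_cKO (SD, n = 3 each), a 7.89-fold higher level. On the log2(FPKM + 1) scale, which understates changes of low genes, the difference was 2.51 (SE 0.14), the 8th highest of the 13688 tested genes. Without any 1 library the difference stayed between 2.44 and 2.63, and without replicate 3 of both groups it was 2.5.

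**Figure D1:**
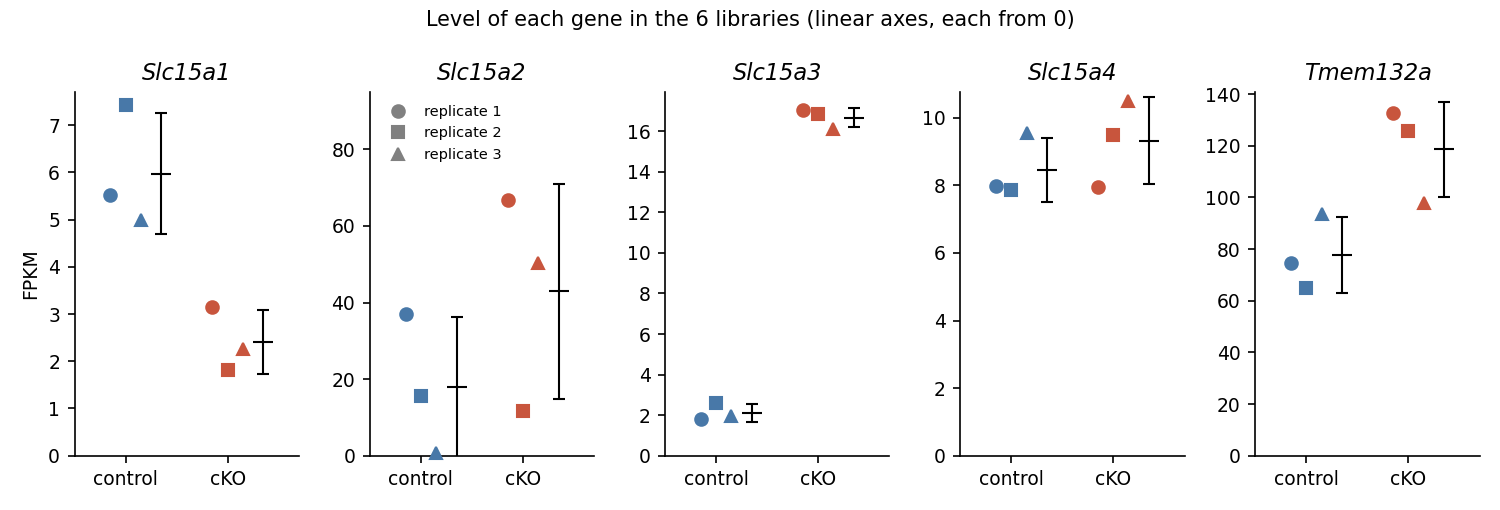
FPKM (linear axes from 0) of each gene in the 3 control (blue) and 3 Znf750_cKO (red) libraries, with a symbol for each replicate number and the mean ± SD beside each group. Slc15a3 sits at 1.79 to 2.61 in control and 16.13 to 17.05 in Znf750_cKO, while Slc15a2 runs from 0.67 to 66.66, and the lower end of its control SD falls under 0 and is not drawn.

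Slc15a4, the other lysosomal member, did not follow Slc15a3. The gene (ENSMUSG00000029416, chr5:127595664-127632897, minus strand) was at 7.97, 7.85 and 9.55 FPKM in control and 7.95, 9.5 and 10.51 FPKM in Znf750_cKO replicates 1, 2 and 3. The groups overlapped, with Znf750_cKO replicate 3 above every control. The log2 difference was 0.12 (SE 0.14, 95% interval -0.20 to 0.45, limma adjusted p = 0.68), so changes within that interval cannot be told from none in these libraries. Glt1d1, whose gene overlaps Slc15a4 on the plus strand, was at 1.36 to 2.25 FPKM in control and 2.31 to 3.34 in Znf750_cKO, and nothing in the labels says whether reads kept their strand.

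Slc15a3 and Slc15a4 together made 9.76, 10.46 and 11.49 FPKM in control replicates 1, 2 and 3 and 25, 26.36 and 26.64 FPKM in the same replicates of Znf750_cKO. The make-up of this pair turned over between the groups. Slc15a3 held 18.3%, 25% and 16.9% of it in control and 68.2%, 64.0% and 60.5% in Znf750_cKO replicates 1, 2 and 3. Slc15a4 was therefore the higher of both genes in each control library and Slc15a3 the higher in each Znf750_cKO library.

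**Figure D2:**
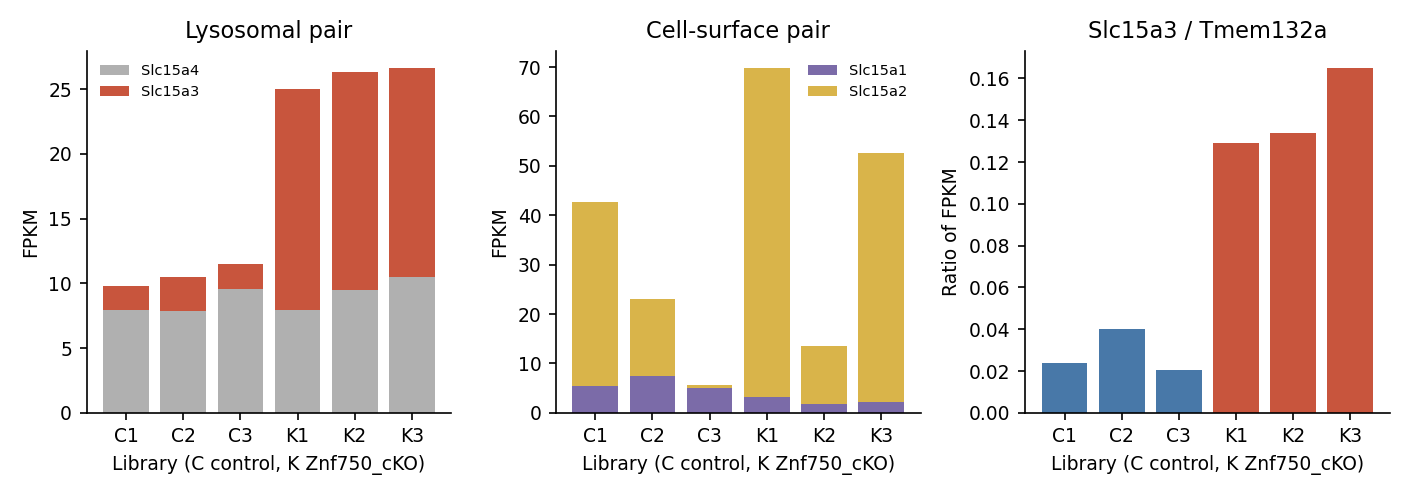
Stacked FPKM of Slc15a3 and Slc15a4 (left) and of Slc15a1 and Slc15a2 (middle), and the ratio of Slc15a3 to Tmem132a FPKM (right), in control (C) and Znf750_cKO (K) replicates 1 to 3, all from 0. The lysosomal pair is at 9.76 to 11.49 FPKM in control and 25 to 26.64 in Znf750_cKO, and the ratio to Tmem132a is at 0.0207 to 0.0401 against 0.129 to 0.165.

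Tmem132a had to be read beside Slc15a3, since the genes meet tail to tail. Tmem132a (ENSMUSG00000024736) runs from 10857822 to 10869940 on chromosome 19, minus strand. The exons of the coding transcripts of both genes share 94 bases (10857822 to 10857915), which is 4.01% of the coding Slc15a3 transcript of 2345 bases and 2.31% of the Tmem132a exon bases. A retained-intron transcript of Slc15a3 reaches further, to 10859362, and shares 1541 of its 4868 bases with coding Tmem132a exons. Reads from such shared bases cannot be assigned to a strand here.

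**Figure D3:**
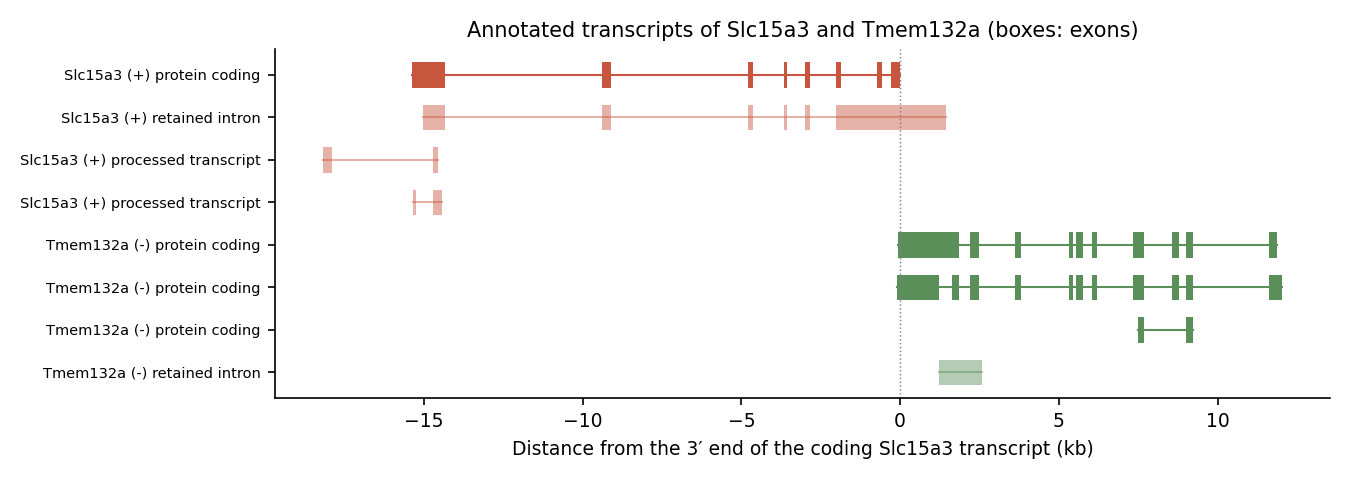
Annotated transcripts of Slc15a3 (red, plus strand) and Tmem132a (green, minus strand), drawn to scale in kb from the 3′ end of the coding Slc15a3 transcript, with exons as boxes and transcripts not labelled protein coding paler. The coding transcripts share 94 exon bases at 0, and the retained-intron transcript of Slc15a3 covers 1541 bases of Tmem132a exons.

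Tmem132a was the highest of the 5 genes, above 93.9% of tested genes by its mean. It stood at 74.63, 65.02 and 93.72 FPKM in control and 132.68, 125.59 and 97.71 FPKM in Znf750_cKO replicates 1, 2 and 3. The groups did not overlap, but the lowest Znf750_cKO library and the highest control library, both replicate 3, lay close together. The mean went from 77.8 ± 14.6 to 119 ± 18.5 FPKM (SD, n = 3 each), with a log2 difference of 0.61 (SE 0.17, 95% interval 0.22 to 0.99). It did not pass the threshold (limma adjusted p = 0.089), and did without replicate 3 of both groups, at a log2 difference of 0.88 and an adjusted p of 0.028.

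The difference of Slc15a3 was set against that of its overlapping partner. Slc15a3 FPKM divided by Tmem132a FPKM gave 0.024, 0.0401 and 0.0207 in control and 0.129, 0.134 and 0.165 in Znf750_cKO replicates 1, 2 and 3. The mean ratio was 5.04-fold higher in Znf750_cKO, which describes the Slc15a3 values that chose it and carries no test. The library with the least Tmem132a in Znf750_cKO, replicate 3, had the highest ratio.

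Few other genes of the region could be tested. Of 12 listed genes around Slc15a3 on chromosome 19, 7 were tested, 0 rose and 0 fell in limma, beside 4.22% called over all genes. So few genes cannot set the region apart from that share. Their median log2 change was 0.08 beside -0.077 over all tested genes. The most abundant, Ddb1, a DNA repair protein, was at 148 to 196 FPKM in control and 184 to 226 in Znf750_cKO. Tmem109, 719 bases beyond Tmem132a, was at 41.4 to 46.6 FPKM in control and 46.2 to 58.9 FPKM in Znf750_cKO. Cd6, the next protein-coding gene before Slc15a3 and a surface protein of T cells, was at 0 to 0.04 FPKM in all 6 libraries. AC132402.1, an antisense RNA gene within the span of Slc15a3, was at 0, 0 and 0.06 FPKM in control and 0.30, 0.10 and 0.55 FPKM in Znf750_cKO, too low to be tested.

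Slc15a1, the intestinal type surface transporter, was lower in Znf750_cKO. The gene (ENSMUSG00000025557, chr14:121459621-121505252, minus strand) stood at 5.52, 7.42 and 4.99 FPKM in control and 3.15, 1.81 and 2.27 FPKM in Znf750_cKO replicates 1, 2 and 3. Every Znf750_cKO library was under every control library. The mean fell from 5.98 ± 1.28 to 2.41 ± 0.68 FPKM (SD, n = 3 each), a 2.48-fold lower level. The log2 difference was -1.04 (SE 0.20) at a limma adjusted p of 0.034. The call is a narrow one: the adjusted p was 0.065 with the replicate number as a block and 0.061 to 0.12 in the 6 fits that leave out 1 library, so it passed in 0 of them. Without replicate 3 of both groups the difference was -1.12 (adjusted p = 0.067). The 3 tested genes within 250 kb, Farp1, Stk24 and Dock9, had log2 changes of -0.16 to 0.25. Of them 0 passed, beside 4.22% over all genes.

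Slc15a2, the high-affinity surface transporter, varied more between libraries than between groups. The gene (ENSMUSG00000022899, chr16:36750177-36784962, minus strand) stood at 37.11, 15.70 and 0.67 FPKM in control and 66.66, 11.79 and 50.25 FPKM in Znf750_cKO replicates 1, 2 and 3. The groups overlapped, with control replicate 3 far below the other 5 libraries and Znf750_cKO replicate 1 the highest. Within control the highest library was 55.4-fold the lowest, and within Znf750_cKO 5.65-fold. The log2 difference was 1.79 (SE 1.45, limma adjusted p = 0.56), with a 95% interval, -2.07 to 5.66, that spans changes in both directions. Without control replicate 3 the difference was 0.49, and without replicate 3 of both groups 0.22.

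The spread of Slc15a2 was wide for this data set. On log2(FPKM + 1) its control libraries spanned 4.51, and among 11851 tested protein-coding genes only Eif2s3y and Ddx3y, both on the Y chromosome, spanned more, at 5.68 and 4.92. Those Y-linked genes were near 0 in replicate 3 of both groups, where Xist was high. Slc15a2 did not share that pattern, being lowest in control replicate 3 and at 50.25 FPKM in Znf750_cKO replicate 3. Within Znf750_cKO it spanned 2.40, and 69 protein-coding genes, itself included, had a range as large. The 4 other genes here spanned 0.25 to 0.52 in control and 0.08 to 0.56 in Znf750_cKO.

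**Figure D4:**
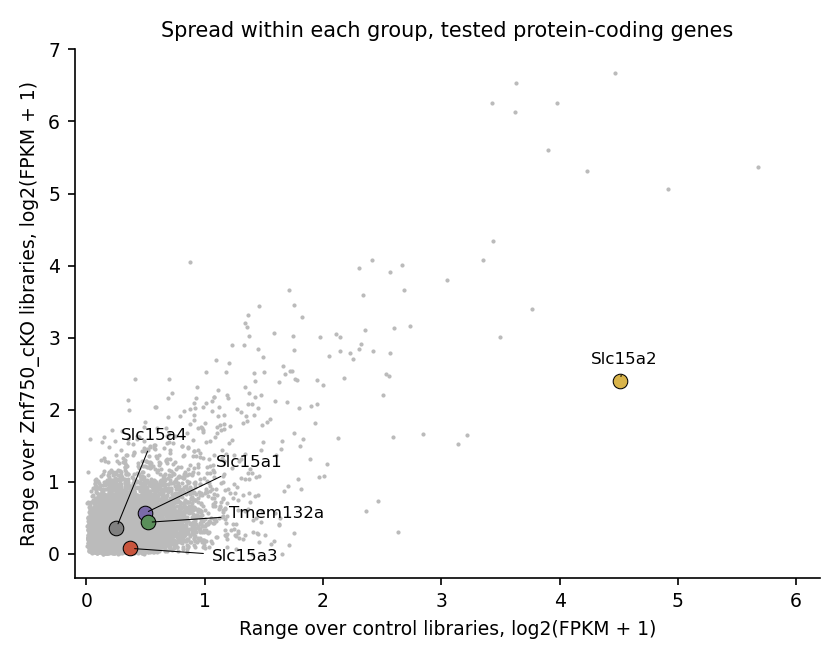
Range over the 3 control libraries (x axis) against the range over the 3 Znf750_cKO libraries (y axis), both on log2(FPKM + 1), for each of 11851 tested protein-coding genes (grey). Slc15a2 lies at 4.51 and 2.40, far to the right of the other 4 genes, which lie at 0.25 to 0.52 on the x axis.

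The neighbours of Slc15a2 did not show this spread. Of 9 protein-coding genes within 250 kb, 6 were tested, and the largest control range among them was 0.56, for Hcls1. Hcls1 and Cd86, both known from leukocytes, fell, from 3.01 to 4.90 FPKM in control to 0.63 to 0.97 in Znf750_cKO and from 1.43 to 2.13 to 0.23 to 0.54, and the other 4 did not pass. With the replicate block Hcls1 kept its call and Cd86 did not (adjusted p = 0.051). Over all tested genes 3.1% fell, and 1.87% with the replicate block. A processed pseudogene on the opposite strand within the Slc15a2 span, Gm8425, was at 0.46 and 0.50 FPKM in replicate 3 of control and Znf750_cKO and at 0 to 0.05 in the other 4 libraries.

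Ordered by mean FPKM, the control libraries ran Tmem132a, Slc15a2, Slc15a4, Slc15a1 and Slc15a3. The ranges of Slc15a4, Slc15a1 and Slc15a3 did not overlap each other, while that of Slc15a2 spanned all 3. In Znf750_cKO the order was Tmem132a, Slc15a2, Slc15a3, Slc15a4 and Slc15a1. Again only Slc15a2 overlapped a neighbour in that order, Slc15a3. The sum of all 4 transporters ran from 17.15 to 52.39 FPKM in control and 39.96 to 94.81 in Znf750_cKO, with overlapping groups, and followed Slc15a2.

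Slc15a3 is best known from macrophages, so markers of other cells were set beside it. Of 12 macrophage markers 11 were tested, and 10 fell in limma (background 3.1% fell), among them C1qb, C1qa and Lyz2. With the replicate block 8 fell, and Cd68 and Mrc1 did not pass (adjusted p = 0.062 and 0.054). The summed level of the whole list was 179.9 to 239.5 FPKM in control and 117.8 to 123.8 in Znf750_cKO, and none of its genes was at 0 in all 6 libraries. Slc15a3 was thus highest in the libraries where these markers were lowest. In bulk RNA, fewer cells of a type and less RNA per cell cannot be told apart.

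Most tested markers on the lists made for other leukocytes also fell, but the only T cell marker that could be tested did not pass. Of 10 markers of Langerhans and dendritic cells 5 were tested and 4 fell, and of 9 leukocyte and T cell markers 6 were tested and 5 fell, with 0 rising in either. Those 4 were the antigen-presenting genes Cd74, H2-Aa, H2-Ab1 and H2-Eb1, of which 2 fell with the replicate block. The 5 were Ptprc, Tyrobp, Fcer1g, Coro1a and Laptm5, general leukocyte genes, of which 4 fell with the replicate block. That marker, Cd3g, was at 2.36 to 3.07 FPKM in control and 0.68 to 2.27 in Znf750_cKO (limma adjusted p = 0.16). Its groups did not overlap, as in the 19.7% of all tested genes with Znf750_cKO lower. The T cell markers Cd3e, Trdc and Trac were too low to be tested, and their groups overlapped. The summed level of the leukocyte list was 75.5 to 111.7 FPKM in control and 11.9 to 21.6 in Znf750_cKO. Cd207, the defining gene of mature Langerhans cells, was at 0 to 0.06 FPKM. Of 7 basal keratinocyte markers 1 rose (Itgb4) and of 7 suprabasal markers 1 rose (Ivl). With the replicate block 3 basal markers rose (Itgb4, Itga6 and Col17a1) and Ivl did not pass (adjusted p = 0.058). Itgb4 passed in 0 of 6 fits with a single library dropped. Hair follicle markers gave 1 rise (Lhx2) and 1 fall (Krt71), erythroid markers 1 fall (Hba-a2), and melanocyte, fibroblast and endothelial markers 0 of either.

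Proteins that act beside the lysosomal transporters were listed next. Of 25 matched genes of endosomal Toll-like receptor and NOD signalling, the receptors that sense nucleic acids and muramyl peptides, 20 were tested, 0 rose and 1 fell, a share near the 4.22% of all genes. In 7 of the 20 the Znf750_cKO libraries all lay below the controls, against 19.7% of all genes, and in 0 above. The most abundant, the chaperone Hsp90b1, was at 112 to 123 FPKM in control and 90.0 to 99.1 in Znf750_cKO without passing (adjusted p = 0.10). The gene that fell was Unc93b1, the chaperone that brings endosomal Toll-like receptors to their compartment. It was at 6.62, 4.90 and 3.44 FPKM in control and 1.02, 0.72 and 0.53 in Znf750_cKO (log2 change -1.74, limma adjusted p = 0.0099), so it went down together with the macrophage markers, whose part in it was not tested. The receptors Tlr3, Tlr7, Tlr8, Tlr9 and Tlr13 stayed under 1 FPKM in all 6 libraries and were not tested. Tlr3 was at 0.24 to 0.72 FPKM in control and 0.21 to 0.62 in Znf750_cKO, with overlapping groups. Each of the other 4 was lower in every Znf750_cKO library than in any control. Tlr7 was at 0.30 to 0.63 and 0.10 to 0.13 FPKM and Tlr9 at 0.17 to 0.48 and 0 to 0.06 FPKM in control and Znf750_cKO. The share of such groups among genes this low was not counted. The summed macrophage and leukocyte markers were lower in the same libraries, and their part in the lower levels of these 4 receptors was not tested. Nod1 and Nod2, the sensors of peptidoglycan fragments that the PHT transporters can carry, were at 10.51 to 11.57 and 1.24 to 2.44 FPKM in control and at 10.51 to 14.63 and 1.71 to 2.45 in Znf750_cKO, with overlapping groups. Irf5, a factor downstream of Slc15a4, was at 6.53 to 7.90 FPKM in control and 5.61 to 7.61 in Znf750_cKO (adjusted p = 0.53). Irf7, an interferon regulator, was at 13.2 to 27.7 FPKM in control and 5.47 to 10.7 in Znf750_cKO without passing (adjusted p = 0.12). Nod1, Nod2, Irf5, Irf7 and these 4 receptors were picked for their known link to these transporters after their values were seen. Tlr3 is given as the remaining endosomal receptor of the list.

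Calls among lysosomal genes are given list by list beside the 4.22% called over all genes. Of 20 matched lysosomal amino acid and nutrient transporters 19 were tested, 1 rose and 0 fell, with a median log2 change of -0.28 beside -0.077 over all tested genes. In 6 of the 19 all Znf750_cKO libraries lay below the controls and in 2 above, beside 19.7% and 8.28% of all tested genes. The riser was Slc7a5, the light chain of a large neutral amino acid exchanger that also works at the cell surface, with a mean of 21.9 ± 3.35 FPKM in control and 32.8 ± 1.11 in Znf750_cKO (limma adjusted p = 0.045). With the replicate block it did not pass (adjusted p = 0.053). Its heavy chain, Slc3a2, stood at 57.1 to 66.5 FPKM in control and 76.1 to 78.8 in Znf750_cKO without passing (adjusted p = 0.10).

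Of 28 tested genes of the lysosomal membrane and proton pump, Atp6v1c2, a pump subunit, fell, from 19.53 to 32.59 FPKM in control to 9.21 to 11.57 in Znf750_cKO. With the replicate block 0 genes of this list passed. Atp6v0c, the most abundant subunit, was at 145 to 148 and 136 to 163 FPKM. Of 23 tested genes of mTORC1, the nutrient sensing kinase complex at the lysosome, 0 rose and 0 fell, and the most abundant, Lamtor2, was at 68.5 to 79.8 and 55.4 to 80.1 FPKM. Of 14 tested lysosomal proteases, which make the peptides that PHT transporters carry, Ctss alone passed the threshold. It fell from 25.51 to 42.34 FPKM in control to 2.77 to 3.55 in Znf750_cKO, and is a macrophage and dendritic cell protease. In 7 of the 14 all Znf750_cKO libraries lay below the controls and in 1 above, beside 19.7% and 8.28% of all tested genes. For the 28 membrane and pump genes these counts were 5 and 3, and for the 23 mTORC1 genes 1 and 3. The most abundant protease, Ctsd, was at 213 to 263 and 249 to 265 FPKM.

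At the cell surface, the energy supply of peptide uptake was represented by 6 tested genes. Beside 1.11% over all tested genes, 1 of these rose. This was Atp1b1, the beta subunit of the sodium pump, at 2.20, 2.21 and 2.29 FPKM in control and 12.73, 7.31 and 12.5 in Znf750_cKO replicates 1, 2 and 3. Its controls lay close together and every Znf750_cKO library stood above them, at a mean 4.86-fold higher (log2 change 1.84, limma adjusted p = 0.0055). Slc9a3, the proton exchanger that sustains Slc15a1 in the intestine, and Pdzk1, its scaffold, were at 0 to 0.08 and 0 to 0.27 FPKM.

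Among 15 tested transporters of single amino acids and taurine, 2 rose and 0 fell, beside 1.11% and 3.1% of all tested genes. With the replicate block 3 rose, beside 0.994% of all tested genes. In 6 of the 15 all Znf750_cKO libraries lay above the controls and in 0 below, beside 8.28% and 19.7% of all tested genes. Slc6a6, the taurine transporter, was at 20.55, 13.62 and 18.18 FPKM in control and 73.07, 40.4 and 95.06 in Znf750_cKO (log2 change 1.87, limma adjusted p = 0.043). Every Znf750_cKO library exceeded every control, though they differed widely among themselves. Slc43a1, a neutral amino acid transporter, rose from 2.30 ± 0.34 to 4.75 ± 0.89 FPKM (adjusted p = 0.047). The most abundant of the list, Slc38a2, a glutamine transporter, stood at 85.8 to 112 FPKM in control and 129 to 171 in Znf750_cKO (adjusted p = 0.058), and passed with the replicate block (adjusted p = 0.036). Of 17 tested genes that cleave small peptides or use histidine, 0 rose and 1 fell, beside 3.1% falling over all tested genes. This was Thop1, an oligopeptidase, which went from 31.1 ± 3.64 to 20.4 ± 0.32 FPKM. The most abundant of this list, the aminopeptidase Npepps, was at 112 to 246 and 98.4 to 342 FPKM, highest in replicate 3 of both groups. Slc7a5, Slc6a6, Slc43a1 and Thop1 each kept their call in 1 of 6 fits when single libraries were dropped, and Slc43a1 did not pass with the replicate block (adjusted p = 0.058).

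Tmem132a was the only member of its own family expressed at 1 FPKM or more in any library. Tmem132b, Tmem132c and Tmem132d were at 0.74 FPKM or less in each library, and Tmem132e was listed at 0 in all 6. Wls, the carrier of Wnt ligands that Tmem132a is known to stabilise, was at 107 to 145 FPKM in control and 116 to 129 in Znf750_cKO, and Hspa5, a chaperone that binds Tmem132a, at 111 to 129 and 104 to 133 FPKM. The groups overlapped for both, and 0 of the 3 tested genes of this list passed. Over all 10 lists 152 genes were tested, of which 4 rose and 4 fell, 5.26% against the background of 4.22%.

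The genes whose pattern over the 6 libraries was most like that of Slc15a3 were Cldn7, Pmaip1, Scin, Krt8 and Krt2, with Pearson correlations of 0.9995, 0.9975, 0.997, 0.9955 and 0.9948 on log2(FPKM + 1). These values describe 6 points in 2 groups and mostly express the gap between the groups. Cldn7, a tight junction protein, was at 0.83 to 1.47 FPKM in control and 7.96 to 8.5 in Znf750_cKO, with control replicate 2 the highest control for both genes. Pmaip1, a promoter of cell death, was at 12.85 to 13.95 and 27.55 to 28.57 FPKM, and Scin, an actin-severing protein, at 2.62 to 2.90 and 8.5 to 9.91 FPKM. Krt8, a keratin of simple epithelia, was at 3.13 to 3.65 and 201 to 282 FPKM, and Krt2, a keratin of the upper epidermis, at 0.20 to 0.30 and 172 to 334 FPKM. By rank correlation 21 genes tied at 1, and 1 of these 5 was among them.

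For Tmem132a the closest patterns were those of Zdhhc3, Tsr1, Rab40c, Gm48161 and Zkscan14, with correlations of 0.992, 0.9914, 0.9912, 0.9901 and 0.9879. Their log2 changes between the groups were 0.13 to 0.46, under the 0.61 of Tmem132a. None of these 5 was among the 5 closest to Slc15a3. Lists this short, out of 13688 tested genes, cannot tell whether Slc15a3 and Tmem132a varied together.

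**Figure D5:**
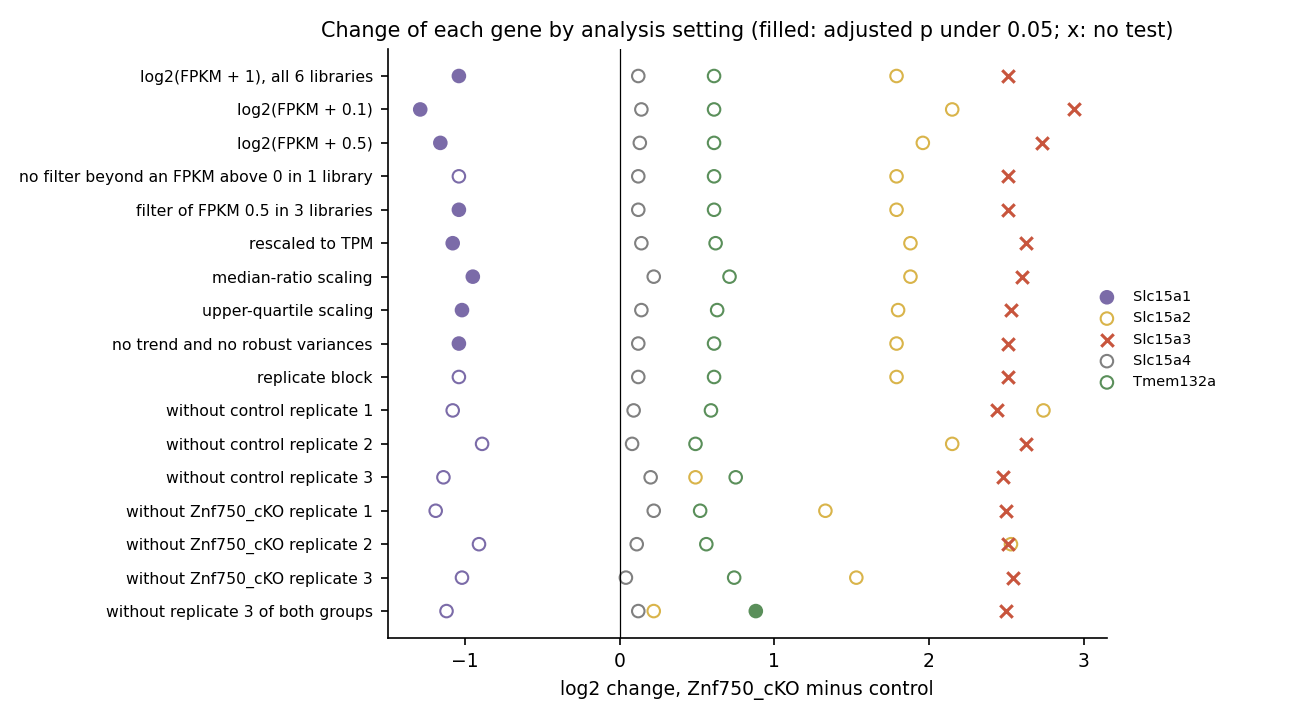
Log2 change (Znf750_cKO minus control) of each gene under the analysis used here and 16 alternatives, filled where the adjusted p was under 0.05 and drawn as a cross for Slc15a3, which has no test. Slc15a3 stays between 2.44 and 2.94, Slc15a1 is open in each fit without 1 library, Slc15a2 runs from 0.22 to 2.74, and Tmem132a is filled only without replicate 3 of both groups.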

How the data were processed

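Per the labels' protocols, epidermis was lifted from newborn back skin with dispase, dissociated with trypsin and taken for poly(A) RNA libraries read as 100-nucleotide single reads. The protocols mention neither sorting nor whether the kit keeps strand. The authors deposited 1 file per library with FPKM per gene, per the file headers. The submitters' processing notes name STAR 2.5.2a, RSEM 1.2.28, DESeq2, cutadapt 1.15, GRCm38 and mm10, without their roles.

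The filter kept the genes that reached 1 FPKM in 3 or more libraries. These were fitted with limma 3.58.1 (R 4.3.3, intensity trend and robust variances) as log2(FPKM + 1) on the group alone, and p-values were adjusted over all 13688. The code was tested on simulated data. Symbols came from a table that named 55141 of the 55487 identifiers, and gene models from GENCODE M21 on GRCm38. Depth was estimated from single-transcript genes, where 70.9% to 77.5% of low values per library lay within 0.1 read of a whole number. This depth entered no test.

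The members and lists were chosen with earlier results of these data known. From each list the most abundant gene and up to 3 called genes in each direction were named, with the 5 genes closest to Slc15a3 and to Tmem132a and the nearest neighbours. Other genes were named after their values were seen, and a few that the rule names are not reported here. Same-numbered libraries had deviations from their group means that correlated at 0.31, 0.17 and 0.48, all above the limit of 0.1. Control replicate 1 and Znf750_cKO replicate 2 also passed that limit, at 0.24, and the other differently numbered pairs correlated negatively. The replicate number was therefore also fitted as a block, though the values do not show that equal numbers mark true pairs. Other alternatives changed the pseudocount, the filter or the scaling, or left out libraries. The labels do not say what the numbers stand for.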

Additional observations from a re-analysis of the deposited data

How the results depend on the processing

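Slc15a3 had a log2 difference of 2.51, and of 2.73 and 2.94 with pseudocounts of 0.5 and 0.1. Slc15a1 stayed at -1.04 but lost its call without a filter (adjusted p = 0.15) and with the replicate block (0.065), and at -1.12 without replicate 3 of both groups (0.067). It ranged from -1.19 to -0.89 with 1 library left out, without a call in any of these 6 fits. Tmem132a gained a call without replicate 3 of both groups, at 0.88, and kept its side of the threshold in the other 15 alternatives. Slc15a2 and Slc15a4 passed in none of 16, with lowest adjusted p-values of 0.43 for each. The replicate block changed no other call among the 5 genes.

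Over all genes, rises numbered 31 without a filter, 248 with median-ratio scaling, 95 without replicate 3 of both groups and 34 to 110 with 1 library left out. Falls numbered 54 without a filter, 265 with median-ratio scaling, 256 with the replicate block and 66 to 259 with 1 library left out. On the 10 gene lists, 4 rose and 4 fell. Rises there numbered 1 without a filter, 2 with the lower filter, 1 as TPM, 8 with median-ratio scaling, 1 without replicate 3 of both groups and 1 to 4 with 1 library left out. Falls there numbered 1 without a filter and 2 to 3 with 1 library left out. Depth is known only as an estimate, and each group holds 3 libraries. The cause of these shifts was not tested.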
